A study of Mus musculus with 8 samples.

Results

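Iron enters a cell bound to transferrin or as free metal, and 10 mouse genes of these routes and of the system that senses the iron inside the cell were followed in liver sinusoidal endothelial cells (LSECs), the porous endothelium of the liver's capillaries. The set held the transferrin receptor *Tfrc*, the metal importers *Slc11a2*, *Slc39a14* and *Slc39a8*, the ferrireductase genes *Steap3*, *Steap4* and *Cybrd1*, the iron regulatory proteins IRP1 (*Aco1*) and IRP2 (*Ireb2*), and *Fbxl5*, the iron-sensing part of the ligase that removes IRP2. These 10 genes were chosen by name, and each was read by 1 of the 23930 targets of the assay. In the iron citrate group, 4 wild-type female Balb/c mice, described as young, had received 150 µg of iron citrate into a vein. In the citrate buffer group, 4 wild-type mice of the same sex, strain and age description had received 0.05 M citrate buffer by the same route. LSECs were sorted 5 h later through 1 gate for both groups (CD45-dim, STAB2-high, CD146-high). Beyond this description, the labels name 1 injected mouse per library and nothing further on the animals. The p-values therefore rest on how these libraries vary. By its title, the study concerns iron-triggered signalling that regulates the mRNA of BMP6, a ligand that controls hepcidin, in these cells.

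In mammalian cells, transferrin-bound iron is taken up by the transferrin receptor into endosomes, where a STEAP reductase turns it into ferrous iron and SLC11A2 (DMT1) carries it into the cytosol. Iron that is not bound to transferrin, which appears in plasma when transferrin is overloaded, is imported by the ZIP transporters SLC39A14 and SLC39A8. When iron is scarce, IRP1 and IRP2 bind stem-loops called iron responsive elements (IREs). Binding in the 3′ untranslated region (UTR) protects *Tfrc* mRNA from decay, and binding in the 5′ UTR blocks translation of ferritin and ferroportin mRNAs. When iron is plentiful, IRP1 takes up an iron-sulfur cluster and becomes a cytosolic aconitase, while FBXL5 is stabilised and marks IRP2 for degradation. This switch acts on protein, so mRNA levels of *Aco1*, *Ireb2* and *Fbxl5* do not measure it.

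The IREs show which of these mRNAs carry the element that the IRPs read. They were searched for in the UTRs of GENCODE transcripts (GRCm38) as the loop CAGTGN closed by 5 paired bases, with 1 extra base allowed on the 3′ side, with a C just before the upper stem and with at least 4 of 5 pairs in the lower stem; only the transcript strand was searched. In each sequence below, read 5′ to 3′ on the transcript strand, the 6 loop bases are in capitals. The *Tfrc* 3′ UTR held 4 such sites, *Slc11a2* held 1 in its 3′ UTR, and the 5′ UTR of the ferroportin gene *Slc40a1* held 1, shown for comparison.
Tfrc, chr16:32631220-32631246, + strand: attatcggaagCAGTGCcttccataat
Tfrc, chr16:32631599-32631625, + strand: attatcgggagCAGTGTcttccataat
Tfrc, chr16:32631664-32631690, + strand: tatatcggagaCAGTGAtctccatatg
Tfrc, chr16:32631711-32631737, + strand: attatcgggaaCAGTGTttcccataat
Slc11a2, chr15:100395153-100395180, - strand: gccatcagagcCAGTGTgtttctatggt
Slc40a1, chr1:45925466-45925492, - strand: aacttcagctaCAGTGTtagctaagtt
Over all annotated genes with such a UTR of at least 30 bases, the same search found a site in the 3′ UTR of 29 of 20735 (0.14%) and in the 5′ UTR of 11 of 19954 (0.0551%). No match was found in the UTRs of the other 8 genes of the set, which says only that these letters were not in them. The *Slc11a2* target is named for the transcript that carries the IRE. Where its amplicon lies is not known here, and reads of transcripts without the element may be counted with it. Both *Tfrc* and the *Slc11a2* transcript thus bear the element on the side where IRP binding is known to protect an mRNA.

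Counts on targets lay between 7969520 and 11314659 per library, and levels below are CPM, counts relative to library totals scaled with TMM factors. The assay amplifies 1 short stretch per gene with its own efficiency, and levels are compared between libraries, not between genes. Citrate buffer replicate 1 stood apart. It correlated with its own group at a median of 0.839, where every other library reached 0.962 to 0.981. Olfactory, vomeronasal and bitter taste receptor genes and keratin-associated protein genes, called silent families below, took 2.42% of its counts, 0.983% in citrate buffer replicate 2 and 0.295% to 0.611% elsewhere. Summed over 10 sinusoidal endothelial markers, the sort gave 21650 to 23730 CPM in iron citrate libraries and 14370 to 27170 CPM in citrate buffer libraries, lowest in citrate buffer replicate 1. None of these 10 was at 0 in any library, and *Clec4g* gave the largest part of the sum. None passed an adjusted p under 0.05 in edgeR. At an unadjusted edgeR p under 0.05, 1 of the 10 was higher and 1 lower, against 6.57% and 8% of all tested targets. *Lyve1* was higher (1780 ± 185 against 1164 ± 462 CPM, iron citrate and citrate buffer, SD, n = 4 each). *Mcam*, the gene of CD146, was lower (179 ± 11.3 against 253 ± 34.8 CPM). The *Mcam* groups did not overlap, against 2.29% of all tested targets in that direction. In such sorted bulk samples, fewer cells of a type and less RNA per cell cannot be told apart.

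After iron citrate, none of the 9 tested genes of uptake and sensing passed the test at an adjusted p under 0.05, against 0.555% of the 14601 targets tested (edgeR's quasi-likelihood test with Benjamini-Hochberg adjustment over all of them). The remaining gene, *Cybrd1*, had too few counts to be tested. At an unadjusted p under 0.05, 1 of the 9 (*Fbxl5*) was higher and none lower, against 14.6% of all tested targets in either direction, 6.57% higher and 8% lower. DESeq2 and limma-voom each called 1 of the 9, *Fbxl5*, against 2.5% of all tested targets with DESeq2 and 1.98% with limma-voom. *Fbxl5* and *Tfrc* had all 4 iron citrate libraries above all 4 citrate buffer libraries, 2 of 9 genes against 8.64% of all tested targets in either direction and 6.36% higher. The median log2 fold change was 0.29 over the 9 genes and -0.01 over all tested targets.

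**Figure D1:**
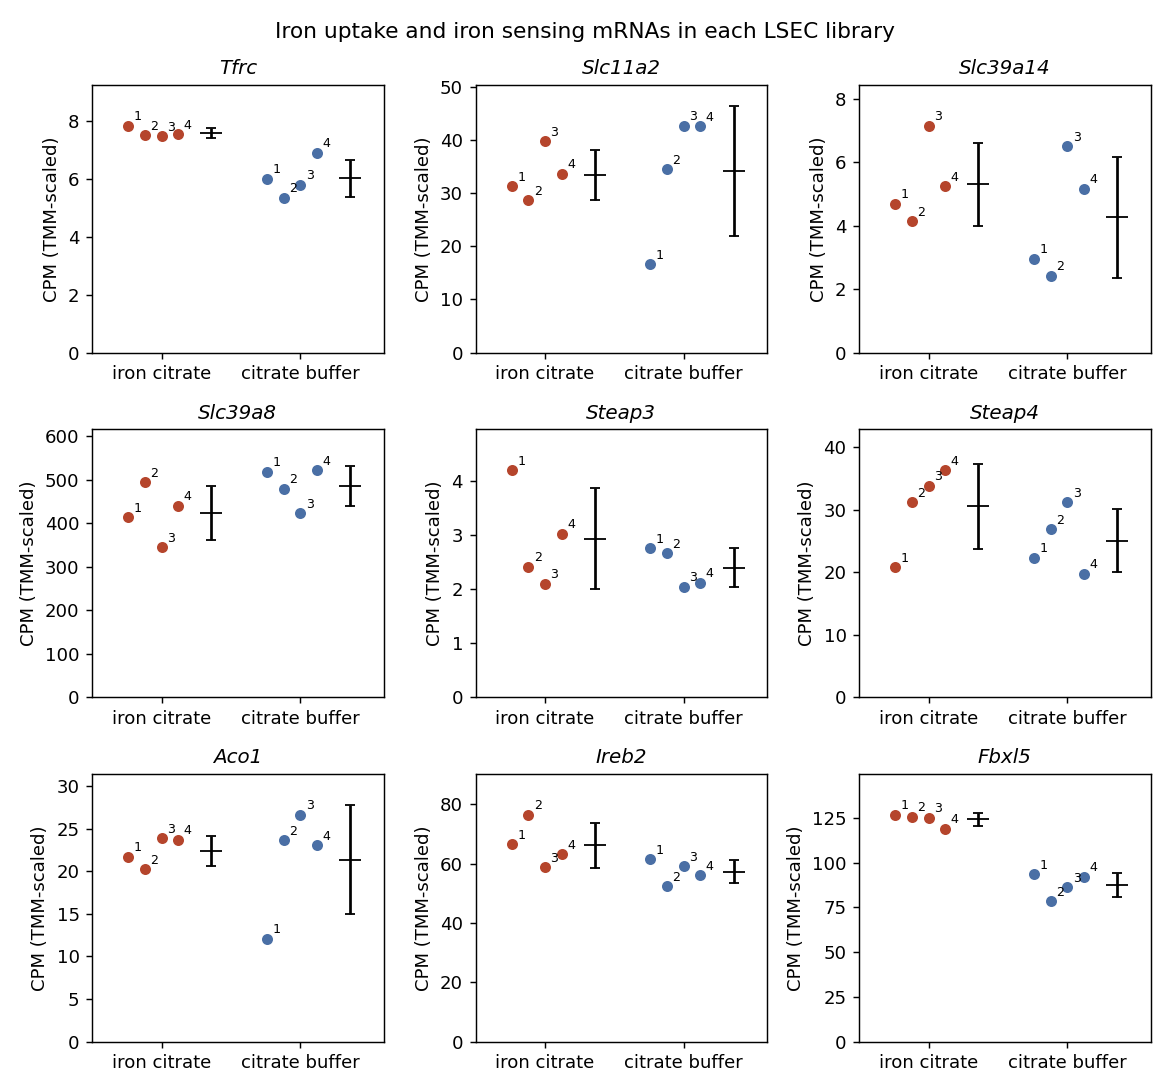
Level of 9 mRNAs in CPM on TMM-scaled library sizes, in 4 iron citrate and 4 citrate buffer libraries; numbers are replicates, and the bar beside each group is the mean ± SD. *Fbxl5* and *Tfrc* separate the groups, and citrate buffer replicate 1 is the lowest point for *Slc11a2* and *Aco1*.

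The route for transferrin-bound iron begins with *Tfrc*. It stood at 7.82, 7.49, 7.46 and 7.53 CPM in iron citrate replicates 1 to 4, against 6, 5.35, 5.79 and 6.89 CPM in citrate buffer replicates 1 to 4. These levels rest on 52 to 82 counts per library. The 4 iron citrate values lay close together and above every citrate buffer value, the nearest of which was citrate buffer replicate 4. The fold change was 1.26 (log2 fold change 0.34, SE 0.26) and did not pass (edgeR adjusted p = 0.491), with a 95% interval of the fold from 0.84 to 1.90. Left out in turn, no library moved the log2 fold change outside 0.28 to 0.41.

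*Slc11a2*, whose protein DMT1 carries ferrous iron out of the endosome, was at 31.3, 28.7, 39.7 and 33.6 CPM in the iron citrate libraries and at 16.7, 34.5, 42.7 and 42.5 CPM in the citrate buffer libraries. The groups overlapped, and citrate buffer replicate 1 was by far the lowest library. Over all 8 libraries the log2 fold change was -0.03 (SE 0.27, edgeR adjusted p = 0.96). Without citrate buffer replicate 1 it was -0.26 (SE 0.15, adjusted p = 0.479), and with the share of counts on the silent gene families as a covariate -0.38 (SE 0.15, adjusted p = 0.207). Without citrate buffer replicates 1 and 2 it was -0.35 (SE 0.16, adjusted p = 0.335), and none of these fits passed. With the replicate block the sign of the log2 fold change turned, to 0.040.

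Among the reductases, *Steap3*, the endosomal ferrireductase of erythroid precursors, had 16 to 43 counts per library. Its levels were 4.20, 2.42, 2.10 and 3.03 CPM after iron citrate and 2.76, 2.67, 2.05 and 2.12 CPM after citrate buffer. Iron citrate replicate 1 was the highest library, and without it the log2 fold change was 0.07 in place of 0.29 (SE 0.34, edgeR adjusted p = 0.657 in all 8). *Steap4*, a related metalloreductase that adipose and inflamed tissues express, had 20.8, 31.2, 33.8 and 36.3 CPM after iron citrate, against 22.3, 26.9, 31.2 and 19.7 CPM after citrate buffer. The groups overlapped through iron citrate replicate 1, and the log2 fold change was 0.29 (SE 0.21, adjusted p = 0.469). *Cybrd1*, the ferrireductase of the duodenal brush border, had 2 counts over the 4 iron citrate libraries and 1 over the 4 citrate buffer libraries. A count of 0 allows up to 3 counts, or 0.251 to 0.398 CPM in these libraries, so no difference in *Cybrd1* was detectable at this depth; such limits cover counting error only.

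Of the importers for iron not bound to transferrin, *Slc39a8* (ZIP8) had the most counts of the set. It stood at 413, 495, 345 and 441 CPM after iron citrate and at 518, 480, 423 and 522 CPM after citrate buffer, from 3285 to 5743 counts per library. The groups overlapped, with iron citrate replicate 3 the lowest library. The fold change was 0.872 with a 95% interval from 0.693 to 1.10 (edgeR adjusted p = 0.47), which is narrower than that of *Tfrc* or *Slc39a14*. *Slc39a14* (ZIP14), the main importer of such iron in hepatocytes, had 29 to 73 counts per library. Its levels were 4.69, 4.15, 7.14 and 5.24 CPM after iron citrate and 2.95, 2.42, 6.50 and 5.17 CPM after citrate buffer. Citrate buffer replicates 1 and 2 lay below all iron citrate libraries, and citrate buffer replicates 3 and 4 lay among them. The log2 fold change was 0.32 (SE 0.39, adjusted p = 0.68). Without citrate buffer replicates 1 and 2 it was -0.15 (SE 0.31, adjusted p = 0.927), and with the silent-family covariate -0.03 (SE 0.27). The 95% interval of the *Slc39a14* fold, 0.68 to 2.29, leaves room for a change of either sign.

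In the sensing arm, *Fbxl5* differed most. It was at 127, 126, 125 and 119 CPM in the iron citrate libraries, against 93.5, 78.4, 86.4 and 92.2 CPM in the citrate buffer libraries. The lowest iron citrate library lay well above the highest citrate buffer library, and the spread within each group was small (124 ± 3.44 CPM after iron citrate and 87.6 ± 6.89 CPM after citrate buffer, SD, n = 4 each). The fold change was 1.42 (log2 fold change 0.50, SE 0.11; 95% interval of the fold from 1.20 to 1.68). Over all 14601 targets this did not pass (edgeR adjusted p = 0.125). *Fbxl5* was called higher in 4 of 18 alternatives, which were DESeq2 (adjusted p = 0.000279), limma-voom (0.0145), the silent-family covariate (0.0335) and the fit without citrate buffer replicate 1 (log2 fold change 0.54, adjusted p = 0.0252). These fits also called more of all tested targets than the 0.555% above, namely 2.5% with DESeq2, 1.98% with limma-voom, 2.24% with the covariate and 1.76% without citrate buffer replicate 1. Without both citrate buffer replicates 1 and 2 the adjusted p was 0.0699, and with another single library left out it lay as high as 0.451, at log2 fold changes of 0.45 to 0.53. The size of the *Fbxl5* difference thus varied little, from 0.39 to 0.54 over the 18 alternatives, while its side of the threshold depended on the fit.

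*Ireb2*, which encodes the IRP2 that FBXL5 removes, stood at 66.5, 76.5, 58.7 and 63.2 CPM after iron citrate and at 61.5, 52.4, 59.1 and 56.2 CPM after citrate buffer. Iron citrate replicates 3 and 4 were the lowest of their group, and replicate 3 lay within the citrate buffer range. The log2 fold change was 0.21 (SE 0.13, edgeR adjusted p = 0.382). *Aco1*, which encodes the IRP1 that doubles as an aconitase, was at 21.7, 20.3, 23.9 and 23.7 CPM after iron citrate and at 12.1, 23.6, 26.6 and 23.1 CPM after citrate buffer. As with *Slc11a2*, citrate buffer replicate 1 was the lowest of the 8 libraries. The log2 fold change of *Aco1* was 0.07 (SE 0.24, adjusted p = 0.896) in all libraries and -0.13 (SE 0.15, adjusted p = 0.72) without that library. Its sign also turned with upper-quartile factors (-0.031) and with library totals (-0.015).

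**Figure D2:**
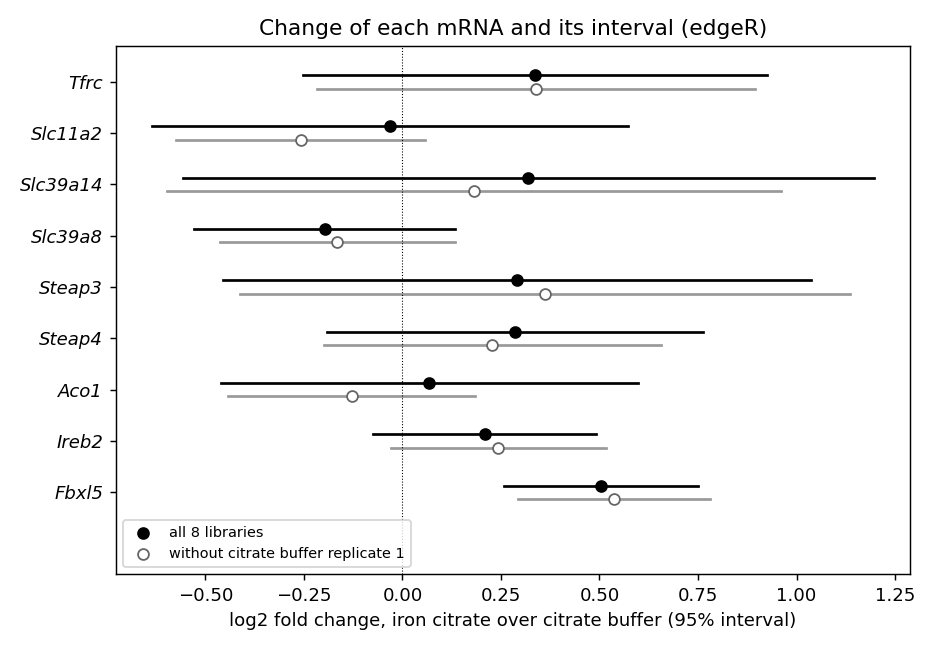
Log2 fold change of each mRNA, iron citrate over citrate buffer, with its 95% interval from edgeR, not adjusted for the number of genes; filled points use all 8 libraries and open points leave out citrate buffer replicate 1. The interval of *Fbxl5* alone lies above 0, and those of the other 8 genes include 0 in both fits.

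Ratios of 2 amplicons within a library do not depend on how libraries are scaled, so 5 pairs were set side by side as log2 ratios of counts with a pseudocount of 0.5. These ratios are descriptive and were not tested. *Fbxl5* to *Ireb2*, the ligase subunit to its substrate, was 0.93, 0.72, 1.09 and 0.91 in iron citrate libraries and 0.60, 0.58, 0.55 and 0.71 in citrate buffer libraries. The groups just failed to overlap, since iron citrate replicate 2 and citrate buffer replicate 4 had nearly the same ratio, and the means differed by 0.30. *Slc39a14* to *Slc39a8* averaged -6.32 ± 0.54 after iron citrate and -6.92 ± 0.74 after citrate buffer (SD, n = 4 each), with overlapping groups. *Slc39a14* to *Tfrc* averaged -0.54 ± 0.35 after iron citrate and -0.60 ± 0.60 after citrate buffer. *Steap4* to *Steap3* averaged 3.37 ± 0.74 after iron citrate and 3.35 ± 0.39 after citrate buffer, and both pairs overlapped. *Aco1* to *Ireb2* was -1.61, -1.91, -1.30 and -1.41 in iron citrate libraries and -2.34, -1.15, -1.15 and -1.28 in citrate buffer libraries. Apart from citrate buffer replicate 1, the citrate buffer ratios of the IRP genes were the highest 3 of the 8 libraries.

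**Figure D3:**
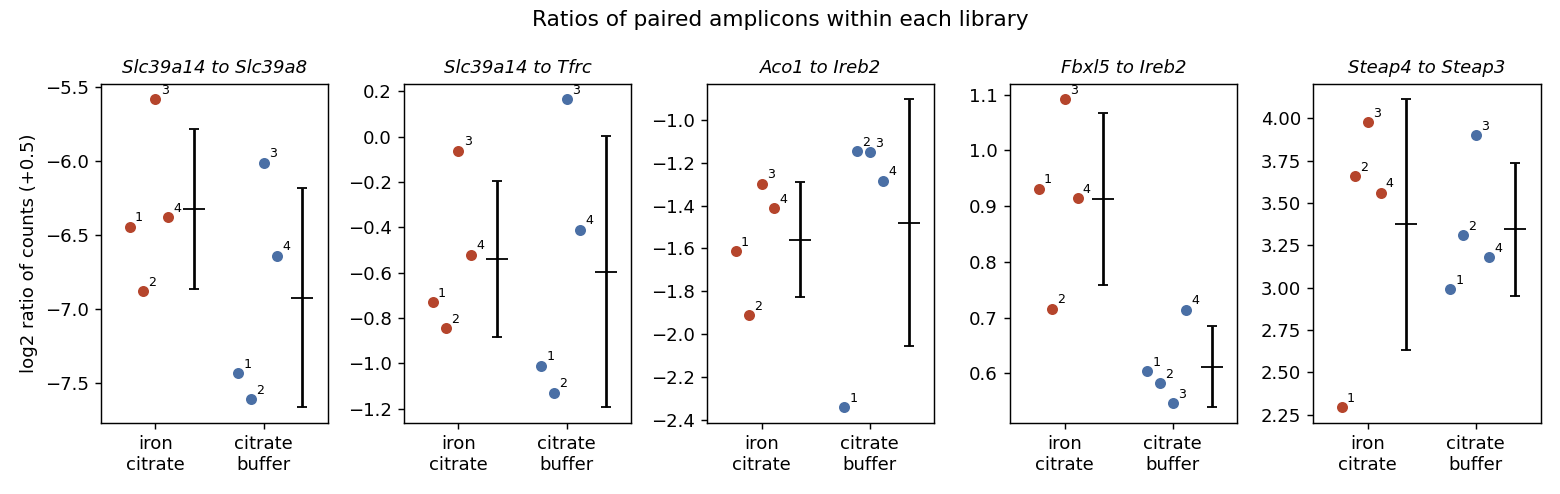
Log2 ratio of the counts of 2 amplicons in each library (pseudocount 0.5), iron citrate left and citrate buffer right in each panel; numbers are replicates and bars the mean ± SD. The *Fbxl5* to *Ireb2* ratio separates the groups narrowly, and citrate buffer replicate 1 lies at -2.34 for *Aco1* to *Ireb2*.

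Other genes of the pathway were read from lists by role, in which each called gene is named, or the most abundant where fewer than 2 were called. Of the 5′ IRE mRNAs, 4 were tested, 1 rose and 3 did not pass, with a median log2 fold change of 0.93. *Slc40a1*, the gene of the iron exporter ferroportin, whose IRE is printed above, rose to 1220, 1299, 1433 and 1472 CPM in iron citrate libraries, against 154, 207, 205 and 283 CPM in citrate buffer libraries (log2 fold change 2.68, SE 0.20, edgeR adjusted p = 0.000213). *Epas1*, the hypoxia factor HIF2 alpha, was at 968 ± 50.7 CPM after iron citrate and 869 ± 367 CPM after citrate buffer (SD, n = 4 each; adjusted p = 0.806), and citrate buffer replicate 1 held its lowest value, 353 CPM. The target listed for the ferritin heavy chain gene *Fth1* is a record with a non-coding RefSeq number. It had 0 or 1 count per library, so it gave no level for ferritin mRNA. The exporter's mRNA rose. That of the receptor *Tfrc*, in whose 3′ UTR the search found 4 sites, was also higher on average (log2 fold change 0.34) but did not pass. IRP binding in the 5′ UTR acts on translation, so the *Slc40a1* mRNA level does not measure it. The search counts only sites of its set pattern. The plot by role shows both lists. The difference between the *Slc40a1* and *Tfrc* changes was itself not tested.

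None of 3 other mRNAs with a described 3′ UTR IRE was called (median log2 fold change 0.66). *Cdc42bpa*, a kinase that acts on the actin cytoskeleton, was at 68.0 ± 5.91 CPM after iron citrate and 39.6 ± 8.97 CPM after citrate buffer (log2 fold change 0.78, SE 0.17, edgeR adjusted p = 0.121). Its groups did not overlap, and it was called higher in 5 of 18 alternatives. Among these were the fits without citrate buffer replicate 1 (adjusted p = 0.0304) and without citrate buffer replicate 4 (0.0274), while with any other single library left out the adjusted p lay above the threshold, at up to 0.429. The phosphatase gene *Cdc14a* was at 34.7 ± 5.61 CPM after iron citrate and 45.1 ± 4.97 CPM after citrate buffer (adjusted p = 0.333), a log2 fold change of -0.38. The search above found no IRE letters in the UTRs of either gene.

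The ligase that FBXL5 belongs to, and the proteins that insert iron-sulfur clusters into cytosolic enzymes, gave 0 calls among 8 tested genes, with a median log2 fold change of 0.14. The SCF adaptor *Skp1* was at 354 ± 47.7 CPM after iron citrate and 323 ± 71.6 CPM after citrate buffer (adjusted p = 0.721). The SCF scaffold *Cul1* was at 79.1 ± 4.99 CPM after iron citrate and 71.5 ± 5.76 CPM after citrate buffer (adjusted p = 0.492). None of 11 tested genes of the transferrin cycle was called (median log2 fold change 0.23). At an unadjusted edgeR p under 0.05, 4 of them were higher and 1 lower, against 6.57% and 8% of all tested targets. The higher ones, by log2 fold change, were *Picalm* (0.73), *Mcoln1* (0.60), *Exoc6* (0.31) and *Vps35* (0.30). The lower one was *Tfr2* (-1.17), also among the hepatocyte markers. These genes were named after their values were seen. The sorting nexin *Snx3*, which helps to recycle the transferrin receptor, was at 520 ± 38.6 CPM after iron citrate and 502 ± 75.9 CPM after citrate buffer (adjusted p = 0.872), and its sign turned under other scalings. *Ndfip1*, an adaptor that directs DMT1 to ubiquitination, was at 302 ± 27.3 CPM after iron citrate and 295 ± 58.6 CPM after citrate buffer (adjusted p = 0.924), with the same turn.

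Of 10 tested genes of other iron, haem or ferritin uptake, 1 rose and 9 did not pass, with a median log2 fold change of 0.27. *Slc48a1*, which moves haem out of lysosomes, rose to 244, 291, 244 and 238 CPM in iron citrate libraries, against 21.8, 55.5, 62.9 and 64.9 CPM in citrate buffer libraries (log2 fold change 2.31, SE 0.30, edgeR adjusted p = 0.00676). *Lcn2*, a siderophore-binding protein that neutrophils carry, was at 62.5, 76.6, 56.0 and 57.1 CPM after iron citrate, against 187, 46.1, 36.3 and 28.8 CPM after citrate buffer. Citrate buffer replicate 1 set its direction, since the log2 fold change was -0.24 in all libraries and 0.76 (adjusted p = 0.0329) without it. Summed over 8 neutrophil markers, the level was 179 to 230 CPM after iron citrate and 108 to 385 CPM after citrate buffer, highest in the same library. *Mpo* was at 0 in replicates 2 and 3 of iron citrate and 2 and 4 of citrate buffer, and *Elane* in iron citrate replicate 3. The part of these cells in the *Lcn2* values was not tested.

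The other ZIP transporters, relatives of *Slc39a8* and *Slc39a14*, gave 1 call among 9 tested genes, a fall (median log2 fold change -0.09). The zinc importer *Slc39a10* fell to 17.2, 17.3, 21.4 and 16.3 CPM in iron citrate libraries, against 54.3, 38.1, 36.3 and 41.1 CPM in citrate buffer libraries (log2 fold change -1.23, SE 0.18, edgeR adjusted p = 0.0107). The call was lost when iron citrate replicate 1, 2 or 4 was left out, at adjusted p-values of 0.0607, 0.0644 and 0.0578. The replicate block also ended it, at 0.0723. *Slc39a13*, a zinc transporter of intracellular vesicles, was at 80.5 ± 12.9 CPM after iron citrate and 88.7 ± 13.6 CPM after citrate buffer (adjusted p = 0.647). Neither importer of non-transferrin iron shared the *Slc39a10* call, though the difference between these genes was not tested.

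**Figure D4:**
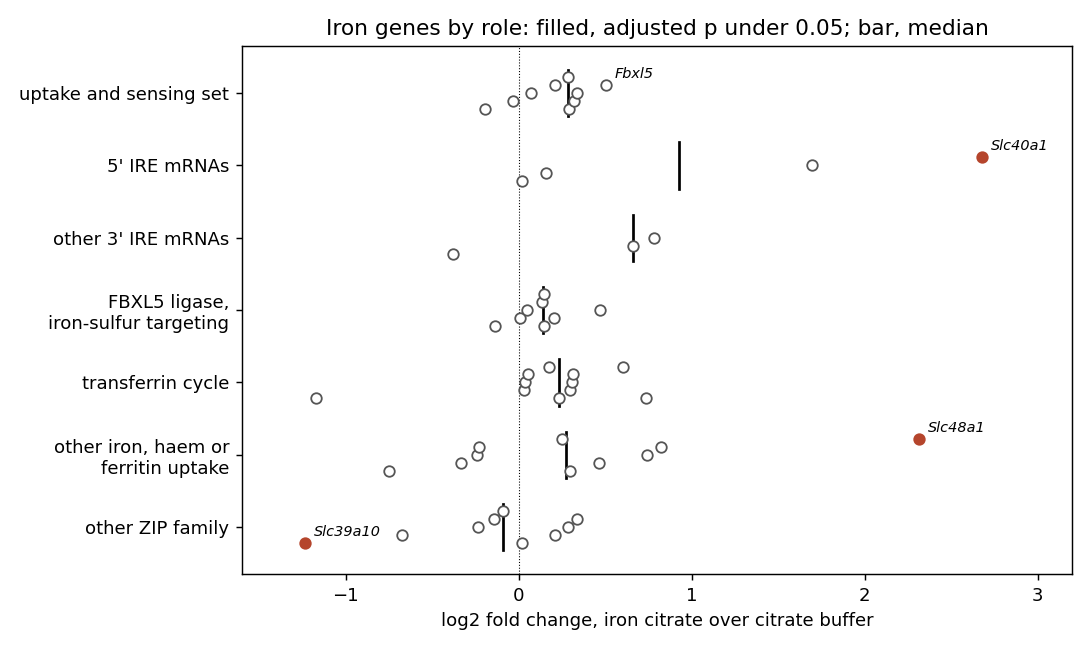
Log2 fold change of each tested gene, iron citrate over citrate buffer, by role; filled points passed an adjusted p under 0.05 in edgeR and the bar is the list's median. *Slc40a1* and *Slc48a1* lie to the right and *Slc39a10* to the left, and the set of uptake and sensing genes has no filled point, with *Fbxl5* at 0.50.

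Markers of other cells were read beside the set. Erythroid precursors are rich in *Tfrc* and *Steap3*, and their markers summed to 37.2 to 46.0 CPM after iron citrate and 39.0 to 53.2 CPM after citrate buffer over 4 matched genes, and none was at 0. On average *Epor*, the erythropoietin receptor gene, gave the largest part, at 29.2 ± 4.44 CPM after iron citrate and 28.5 ± 14.3 CPM after citrate buffer (SD, n = 4 each). *Alas2*, the erythroid enzyme of haem synthesis, was at 4.75 ± 2.67 CPM after iron citrate and 1.48 ± 0.762 CPM after citrate buffer (fold change 3.24, edgeR adjusted p = 0.333). *Slc4a1*, the red cell anion exchanger gene, was at 7.84 ± 1.53 CPM after iron citrate and 15.7 ± 7.97 CPM after citrate buffer (fold change 0.499, edgeR adjusted p = 0.333). *Alas2* and *Slc4a1* thus differed in opposite directions, both at unadjusted p-values under 0.05 and neither past the adjusted threshold. These erythroid genes were singled out after their values were seen. The *Slc39a14*-rich hepatocytes left 326 to 647 CPM after iron citrate and 459 to 756 CPM after citrate buffer over 6 markers, none at 0. Over 7 Kupffer cell markers the sums were 133 to 403 CPM after iron citrate and 39.0 to 228 CPM after citrate buffer, lowest in citrate buffer replicate 1, and *C1qa* was at 0 in replicates 2 to 4 of both groups. Stellate cell markers summed to 359 to 562 CPM after iron citrate and 213 to 593 CPM after citrate buffer. T, NK and B cell markers summed to 586 to 721 CPM after iron citrate and 530 to 1047 CPM after citrate buffer, and no marker of these 2 lists was at 0. No marker in these 5 lists was called. The median log2 fold change was 0.59 over 6 tested Kupffer cell markers (0.34 to 0.73). It was -0.48 over 6 hepatocyte markers (-1.17 to -0.06). Over the erythroid, stellate cell and T, NK and B cell markers tested it was 0.03, 0.32 and -0.11. The part of these cells in the values of the uptake and sensing genes, *Slc40a1* and *Slc48a1* was not tested.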

How the data were processed

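The authors deposited whole-number read counts per RefSeq target, 1 file per library, from amplicon libraries (Ion AmpliSeq mouse transcriptome kit, per the labels' protocols). HTSeq 0.6.0 and DESeq2 1.18.1 are named in the submitters' processing notes. The aligner, genome build and filters were not given in the sources used here. Of the 5 samples per group in the design text, 4 were given and used. HTSeq's summary lines, 2.15% to 4.60% of a file's reads, were left out. Symbols were matched through RefSeq accessions (GRCm38.p6 table), 18124 with the version, 4324 without it and 114 through GENCODE M21, and 1368 targets stayed unmatched. Listed genes without a matched target (*Ftl1*, *Rbx1*, *Tf*, *Slc39a7* and 8 cell type marker entries) were not analysed here. Genes of near-identical families may share reads.

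Groups were compared by edgeR 4.0.16 (R 4.3.3) with filterByExpr, TMM factors and a robust quasi-likelihood F-test, adjusted over 14601 targets. Standard errors and 95% intervals come from the F statistic. The 18 alternatives used other scaling factors, DESeq2 1.42.0, limma-voom (limma 3.58.1), other filters, a replicate block, a covariate and left-out libraries. The edgeR, DESeq2 and limma steps were tested on simulated data. Library pairs within groups differed by more than sampling noise (chi-square per degree of freedom at least 8.84). The genes and lists were chosen with earlier results of these data known. By rule, all 10 genes are named and, per list, each called gene or the most abundant up to 2. Further genes of the sinusoidal endothelial, 5′ IRE, transferrin cycle and erythroid lists were named after their values were seen. IREs were searched in GENCODE M21 transcripts (GRCm38).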

Additional observations from a re-analysis of the deposited data

Results flagged for a closer look

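In 28 group-wise checks of the uptake and sensing genes and their ratios, 1 library lay far from the other 3 of its group. The log2 ratio of *Aco1* to *Ireb2* was -2.34 in citrate buffer replicate 1, against -1.28 to -1.15 in the other citrate buffer libraries, a gap of 0.886 of the group's range. Chance flags about 1 in 20 such groups. The same library had the largest share of counts on gene families silent in liver, 2.42%. The part of that share in the ratio was not tested.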

How the results depend on the processing

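Of 160 refits of the 9 tested genes, 144 kept the direction and the side of the threshold, 4 called *Fbxl5* and 12 turned the sign of an uncalled gene. The number of targets called moved from 81 to 365 with DESeq2, 289 with limma-voom, 43 with the replicate block, 327 with the silent-family covariate and 281 without citrate buffer replicates 1 and 2, and lay between 46 and 259 with 1 library left out. The number of uptake and sensing genes called was 1 with DESeq2, limma-voom or the covariate and 0 to 1 with 1 library left out. The median of all targets shifted from -0.01 to -0.12 with upper-quartile factors and -0.11 with library totals. Same-numbered libraries did not correlate in a uniform way (correlations of their deviations 0, 0.176, 0.609 and -0.315), and not every library correlated best with its own number. Such correlations cannot show whether libraries were paired by design.

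Signs turned as follows, as log2 fold changes, with the cause not tested. With upper-quartile factors *Aco1* was at -0.031, *Snx3* at -0.057 and *Ndfip1* at -0.068, and with library totals *Aco1* was at -0.015, *Snx3* at -0.042 and *Ndfip1* at -0.054. With limma-voom *Aco1* was at -0.14, *Epas1* at -0.081, *Snx3* at -0.063, *Ndfip1* at -0.075 and *Lcn2* at 0.75. With the replicate block *Slc11a2* was at 0.040 and *Lcn2* at 0.22. With the covariate *Slc39a14* was at -0.033, *Aco1* at -0.19, *Epas1* at -0.18, *Skp1* at -0.11, *Snx3* at -0.087, *Ndfip1* at -0.16, *Lcn2* at 0.98 and *Slc39a13* at 0.034. Without citrate buffer replicates 1 and 2 *Slc39a14* was at -0.15, *Aco1* at -0.15, *Epas1* at -0.19, *Skp1* at -0.082, *Snx3* at -0.044, *Ndfip1* at -0.19, *Lcn2* at 0.95 (adjusted p = 0.00267) and *Slc39a13* at 0.013. With 1 library left out the ranges were -0.26 to 0.093 for *Slc11a2*, -0.13 to 0.19 for *Aco1*, -0.10 to 0.36 for *Epas1*, -0.054 to 0.095 for *Snx3*, -0.071 to 0.12 for *Ndfip1* and -0.50 to 0.76 for *Lcn2*. *Steap3*, *Slc39a14* and *Tfrc* had the fewest counts of the 9 tested genes, at most 82 per library.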
